A study of Mus musculus with 14 samples.

Results

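Bicuculline was set directly against peptides of the neuronal membrane proteasome (NMP) in primary cortical neuron cultures from wild-type C57BL/6 mice. The libraries compared were all those labelled with either treatment, 3 with bicuculline and 3 with intact NMP peptides, 6 of the 14 libraries of the series. All cultures were treated for 1 h at 12 days in vitro. The bicuculline cultures received 20 µM of the compound and the peptide cultures received purified NMP peptides at 4% by volume, so a single dose and a single time of each was measured and the doses cannot be matched. A further 3 libraries came from cultures given the same volume of NMP peptides cleaved with proteinase K (PK), 3 from NMP peptides with 100 µM APV, and 2 from 1% DMSO. The PK-cleaved and DMSO libraries serve here to show on which side each gene moved, and the APV libraries enter only the shared estimate of the spread. The labels name no solvent for bicuculline or for the peptides.

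Bicuculline blocks GABA-A receptors, the main fast inhibitory receptors of the cortex, and so raises the firing of a cultured network through its own excitatory synapses. The neuronal membrane proteasome is a proteasome at the plasma membrane of neurons that degrades newly made proteins and releases their peptides outside the cell. Synaptic calcium entry acts on the transcription factors CREB, SRF and MEF2, which are already present, and these switch on immediate-early genes within minutes. The first products are transcription factors such as Fos, Npas4 and the Egr family, together with proteins that act at synapses or damp the signal. The comparison asks in which of these genes, and by how much, the response to blocked inhibition differed from that to the peptides.

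RNA was sequenced from ribosome-depleted total RNA as paired ends of 100 bases. Values are log2 signals as deposited, already forced to the same distribution in each library, so a shift in the total amount of RNA is hidden and the number of reads behind a value is not known. A library held values for 15824 to 16231 features, and the test covered 10877 genes. In bulk RNA, fewer cells of a type and less RNA per cell cannot be told apart. The labelled cell type was borne out by its markers, since all 12 pan-neuronal markers were tested and their antilogged signals summed to between 1958 and 2211 in the bicuculline libraries and between 1884 and 2104 in the peptide libraries. The cultures also held glia, with astrocyte marker sums of 1221 to 1484 and 1261 to 1403 in the same order, and 0 of 13 microglia markers passed the filter on low signal. Gfap, the astrocyte filament gene, separated libraries within groups. It stood at 4.18 in bicuculline replicate 2 and 4.15 in NMP peptides replicate 3, against 2.41 to 3.48 in the other 4 libraries compared. The astrocyte marker sum did not follow Gfap. It was 1221 in bicuculline replicate 2, the lowest of its group, and 1271 in NMP peptides replicate 3. Fibroblast and meningeal markers summed to 18.8 and 16.3 in those libraries, against 9.6 to 11.2 in the other 4. The reason was not tested. Values without the high-Gfap libraries are given below for some of the genes whose call changed.

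Activity-regulated genes such as Arc, Npas4, Egr4, Btg2 and Fos were higher with bicuculline than with the peptides, and no gene was called in the other direction. At a limma adjusted p under 0.05, 19 genes were higher with bicuculline and 0 were lower, 0.175% of the genes tested. At an unadjusted p under 0.05 the split was 198 higher (1.82%) and 33 lower (0.303%). These 231 genes are a smaller share of the 10877 than the 0.05 that uniform p-values would give with no differences. The unadjusted p-values thus ran large, and the reason was not tested. The differences reached 5.69-fold for Arc and were at least 2-fold for 12 of the 19 genes. Across all tested genes the median difference was 0.00 on the log2 scale, and 26 genes lay more than 1 log2 unit higher with bicuculline against 1 gene, Gm2446, more than 1 lower. Of the 19 genes, 16 belong to the 115 tested members of 6 lists of activity-regulated genes, 1 belongs to the 254 tested members of the other lists, and Cited2 and Fbxo33 belong to none. The lists were chosen with earlier results of these data known, so their counts and medians, here and below, only describe the genes and are no test.

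The count of 19 rests on the pooled estimate of the spread and on single libraries. It was 5 with only the 6 compared libraries in the fit and 10 without the variance trend, against 38 with array weights. Leaving out bicuculline replicates 1, 2 and 3 gave 4, 34 and 12 genes, and leaving out NMP peptides replicates 1 and 3 gave 8 and 5. Each of the 19 genes stayed above 0 in every alternative in which it was tested. Every bicuculline library lay above every peptide library in all 19, a pattern that 3.25% of all tested genes share and that the choice of called genes makes likely. With this separation the differences must stay above 0 when 1 library is left out.

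**Figure D1:**
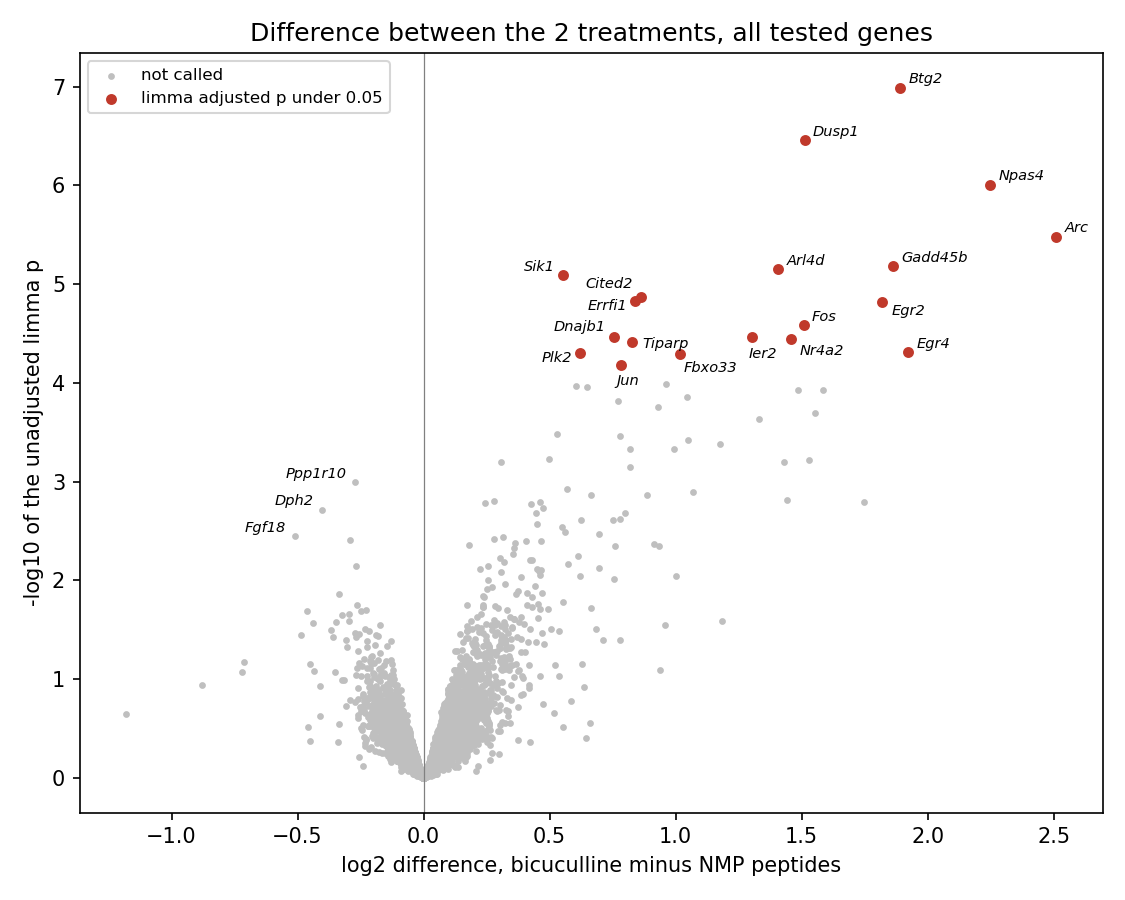
Each point is 1 of the 10877 tested genes, with the log2 difference between bicuculline and NMP peptides on the x axis and the −log10 of the unadjusted limma p on the y axis. The 19 called genes, in red, all lie to the right of 0, from Sik1 at 0.55 to Arc at 2.51, and the named genes on the left, Ppp1r10, Dph2 and Fgf18, are not called.

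Among the neuronal effectors, Arc showed the largest difference of the genes tested. Arc encodes a cytoskeleton-associated protein that reaches active synapses and takes part in AMPA receptor removal (chr15:74669081-74672570 on GRCm38.p6, the build of all positions here). Its log2 signal was 6.65, 5.78 and 6.57 in the bicuculline libraries, against 4.07, 4.21 and 3.20 in the peptide libraries. The lowest bicuculline library lay 1.57 log2 units above the highest peptide library. The difference was 2.51 on the log2 scale (SE 0.34, 95% interval 1.78 to 3.24, limma adjusted p = 0.00897).

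Npas4, a neuron-specific transcription factor that responds to calcium entry and adjusts inhibitory synapses, came next (chr19:4984353-5003439). Its log2 signal was 5.73, 5.12 and 6.08 with bicuculline, against 3.45, 3.80 and 2.93 with NMP peptides. The groups were separated by 1.31 log2 units, and the difference was 2.25 (SE 0.27, 95% interval 1.66 to 2.84, limma adjusted p = 0.00355). Bicuculline replicate 2 and NMP peptides replicate 3, the libraries with the high Gfap, were the lowest of their groups for both Arc and Npas4.

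The zinc-finger factors Egr4 and Egr2 and the orphan nuclear receptor Nr4a2 were the other members of the Egr, Nr4a and Npas4 list that rose. Egr4 (chr6:85511121-85513589) had log2 signals of 6.43, 5.58 and 6.96 with bicuculline, against 4.72, 4.53 and 3.94 with NMP peptides. The 3 bicuculline values lay above the 3 peptide values, a difference of 1.92 (SE 0.33, limma adjusted p = 0.0305). Egr2 had 3.72, 3.08 and 3.77 with bicuculline, against 2.01, 1.91 and 1.20 with NMP peptides (difference 1.82, SE 0.28, limma adjusted p = 0.0166). Nr4a2 had 3.35, 3.24 and 4.34 with bicuculline, against 1.74, 2.21 and 2.60 with NMP peptides (difference 1.46, SE 0.25, limma adjusted p = 0.0276). In Nr4a2 the third library of each group was the highest, unlike in Arc and Npas4. Egr2 overlaps an annotated noncoding gene and Nr4a2 another annotated gene, LOC105244150, and since the strand of the counting is not given here, reads of the partners cannot be told apart. Of the 10 tested genes of this list 4 rose, 9 had an unadjusted p under 0.05, and the median difference was 1.12, against 0.00 over all genes. The shares over all tested genes were 0.175% called and 1.82% higher at an unadjusted p under 0.05.

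Of the AP-1 transcription factors, which bind DNA as pairs of Fos and Jun proteins, Fos and Jun rose. Fos (chr12:85473890-85477274) had log2 signals of 7.80, 7.29 and 8.02 with bicuculline, against 6.31, 6.56 and 5.71 with NMP peptides. All bicuculline values exceeded all peptide values, and the difference was 1.51 (SE 0.25, 95% interval 0.98 to 2.04, limma adjusted p = 0.0259). Jun, a partner of Fos in AP-1, had 6.34, 6.02 and 6.58 with bicuculline, against 5.50, 5.59 and 5.50 with NMP peptides (difference 0.78, SE 0.14, limma adjusted p = 0.0373). The 3 peptide libraries were almost equal for Jun (SD 0.05) and spread more widely for Fos (SD 0.44). Of the 10 tested members of the list 2 rose and all 10 lay above 0, with a median of 0.85. Over all tested genes 0.175% were called and 52.5% lay above 0.

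Immediate-early regulators outside those families were represented by Ier2, a short-lived nuclear protein, and Tiparp, a mono-ADP-ribosyltransferase that represses the aryl hydrocarbon receptor. Ier2 had log2 signals of 5.85, 5.27 and 5.84 with bicuculline, against 4.73, 4.40 and 3.92 with NMP peptides (difference 1.30, SE 0.22). Tiparp had 4.24, 4.22 and 4.87 with bicuculline, against 3.46, 3.79 and 3.60 with NMP peptides (difference 0.83, SE 0.14). The groups did not overlap for either gene, and the limma adjusted p was 0.0276 for Ier2 and 0.0278 for Tiparp. These were 2 of the 24 tested members, among which 14 had an unadjusted p under 0.05 above 0 and none below. The median difference was 0.31. Over all tested genes the shares were 0.175% called, and 1.82% higher and 0.303% lower at an unadjusted p under 0.05.

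Btg2 and Gadd45b, known as growth-arrest genes, also rose. Btg2, an antiproliferative factor that binds the deadenylase complex which shortens mRNA tails (chr1:134074865-134079155), had the smallest p-value of the genes tested. Its log2 signal was 6.29, 5.68 and 6.22 with bicuculline, against 4.33, 4.41 and 3.78 with NMP peptides, a difference of 1.89 (SE 0.19, 95% interval 1.48 to 2.30, limma adjusted p = 0.00111). The SD was 0.34 with bicuculline and 0.34 with NMP peptides, each far below the difference. Gadd45b, a stress-response protein linked to active DNA demethylation in neurons, had 5.03, 4.54 and 5.49 with bicuculline, against 3.33, 3.26 and 2.89 with NMP peptides (difference 1.86, SE 0.27, limma adjusted p = 0.0126). Again replicate 2 was the lowest of the bicuculline libraries and replicate 3 the lowest of the peptide libraries.

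Dusp1 and Errfi1, whose products limit kinase signalling, were higher as well. Dusp1, a nuclear phosphatase that switches off MAP kinases (chr17:26505591-26508472), had log2 signals of 5.90, 5.35 and 5.82 with bicuculline, against 4.34, 4.39 and 3.80 with NMP peptides. It was separated by 0.96 log2 units between the nearest libraries, and the difference was 1.51 (SE 0.17, limma adjusted p = 0.00191). Errfi1, an inhibitor of the EGF receptor, had 3.61, 3.51 and 4.13 with bicuculline, against 2.75, 3.09 and 2.89 with NMP peptides (difference 0.84, SE 0.13, limma adjusted p = 0.0166). Dusp1 was the 1 called gene among 17 tested MAP kinase phosphatases and feedback inhibitors, whose median difference was 0.20. The called share over all tested genes was 0.175%. Errfi1, and likewise Tiparp and Sik1, overlaps an annotated noncoding gene.

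The 2 called kinase genes had smaller differences with little spread. Sik1, a salt-inducible kinase that phosphorylates the CREB coactivators and restrains CREB target genes, had log2 signals of 4.02, 3.95 and 3.96 with bicuculline, against 3.33, 3.53 and 3.41 with NMP peptides. This was the smallest called difference, 0.55 or 1.47-fold, with an SE of 0.08 (limma adjusted p = 0.0126). Plk2, a polo-like kinase that weakens synapses after prolonged activity, had 6.79, 6.57 and 7.07 with bicuculline, against 6.08, 6.36 and 6.12 with NMP peptides (difference 0.62, SE 0.11, limma adjusted p = 0.0305). Its groups came within 0.21 log2 units of each other, the smallest gap among the 19 genes. Arl4d, a small GTPase of the ARF family, had 5.29, 4.69 and 5.74 with bicuculline, against 4.03, 3.90 and 3.57 with NMP peptides (difference 1.41, SE 0.20, limma adjusted p = 0.0126). Of the 36 tested synaptic and signalling effectors, 7 rose, and 23 had an unadjusted p under 0.05 above 0 and 1 below. The median difference was 0.37. Over all tested genes the shares were 0.175% called, and 1.82% higher and 0.303% lower at an unadjusted p under 0.05.

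The remaining called genes came from outside the activity lists. Cited2, a transcriptional coregulator that competes for the coactivators CBP and p300, had log2 signals of 5.17, 5.26 and 5.77 with bicuculline, against 4.37, 4.63 and 4.62 with NMP peptides (difference 0.86, SE 0.13, limma adjusted p = 0.0166). Fbxo33, an F-box protein of a ubiquitin ligase, had 3.51, 3.23 and 4.12 with bicuculline, against 2.62, 2.73 and 2.47 with NMP peptides (difference 1.02, SE 0.18, limma adjusted p = 0.0305). Neither gene's groups overlapped. Dnajb1, a cochaperone of HSP70, had 5.08, 4.54 and 5.05 with bicuculline, against 4.26, 4.21 and 3.94 with NMP peptides (difference 0.75, SE 0.13, limma adjusted p = 0.0276). It was the 1 called gene of 18 tested heat shock chaperones, whose median difference was 0.04, where 0.175% of all tested genes were called.

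**Figure D2:**
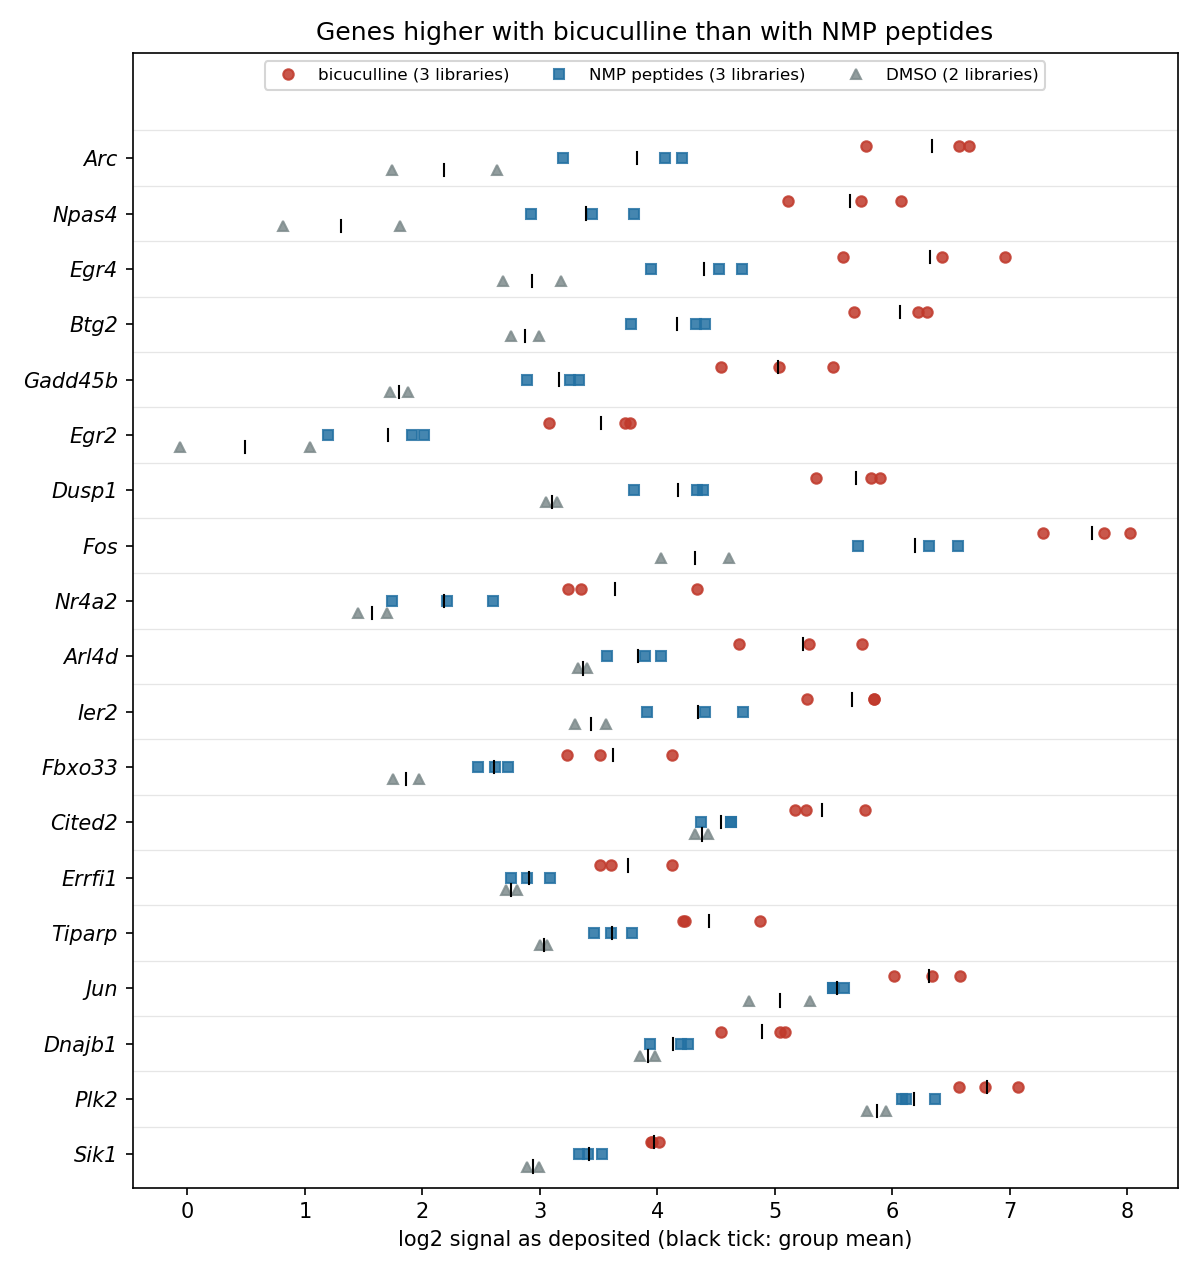
The log2 signal of each called gene is shown for every bicuculline (red circles), NMP peptide (blue squares) and DMSO (grey triangles) library, with a black tick at each group mean. In all 19 genes the 3 bicuculline libraries lie to the right of the 3 peptide libraries, and for Cited2 and Errfi1 the peptide libraries lie close to the DMSO libraries.

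The order of the libraries inside the groups repeated itself from gene to gene. Bicuculline replicate 2 was the lowest bicuculline library in 18 of the 19 genes and NMP peptides replicate 3 the lowest peptide library in 12. Both had the high Gfap signal. Taken against each other, these 2 libraries gave a median difference of 1.12 over the 19 genes, and the other 4 libraries gave 1.48. All 19 genes lay above 0 in either set, which the full separation of the groups in these genes fixed in advance. Gfap itself differed by 0.30 between the treatments (SE 0.53, 95% interval −0.83 to 1.43). Without the 4 libraries of the series with the highest Gfap, 23 genes were called, 14 of the 19 among them. Cited2, Errfi1, Tiparp, Plk2 and Sik1 lost their call there. With Gfap as a covariate 39 were called, all 19 among them. These fits were chosen after seeing the data.

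Promoter sequence is shown for called genes whose window, 250 bases before to 50 after the start in the RefSeq annotation of GRCm38.p6, holds a complete cAMP response element (CRE), the site bound by CREB. The letters searched were TGACGTCA for the complete element, TGACG for the core that each strand of it carries, TGANTCA for an AP-1 site and the CArG box of SRF, on both strands. A complete CRE therefore counts as cores too. Of the 19 called genes 16 had at least 1 window, and Arc was not among them. A complete CRE was found in 5 of the 16 (31.2%), namely Btg2, Dusp1, Arl4d, Plk2 and Errfi1, and in 333 of the 8422 tested genes with a window (3.95%). A core was found in 11 of the 16 (68.8%) and in 37.6% of all, a CArG box in 1 of the 16 (6.25%, Egr2) and in 1.52% of all, and an AP-1 site in 0 of the 16 and in 5.31% of all. These are matches of letters in short windows and were not tested. The 250 bases before the start of 4 of the genes read as follows, 5′ to 3′ on the strand of the gene, with cores on either strand in capitals so that the complete element appears as an unbroken run of them.
Btg2: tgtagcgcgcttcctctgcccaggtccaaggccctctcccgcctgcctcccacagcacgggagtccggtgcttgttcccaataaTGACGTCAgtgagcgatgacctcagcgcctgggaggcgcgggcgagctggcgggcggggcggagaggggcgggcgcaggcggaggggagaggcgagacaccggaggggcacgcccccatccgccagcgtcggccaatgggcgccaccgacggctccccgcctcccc
Dusp1: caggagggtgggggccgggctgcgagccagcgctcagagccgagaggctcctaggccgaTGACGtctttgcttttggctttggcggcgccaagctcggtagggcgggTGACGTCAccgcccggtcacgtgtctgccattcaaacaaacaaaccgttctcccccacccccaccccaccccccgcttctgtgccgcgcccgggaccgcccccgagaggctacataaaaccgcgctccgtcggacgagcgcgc
Arl4d: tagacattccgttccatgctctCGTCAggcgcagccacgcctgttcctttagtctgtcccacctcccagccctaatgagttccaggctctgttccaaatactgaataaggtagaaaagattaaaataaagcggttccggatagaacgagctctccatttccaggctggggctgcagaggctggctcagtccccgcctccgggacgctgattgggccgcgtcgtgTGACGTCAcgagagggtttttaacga
Plk2: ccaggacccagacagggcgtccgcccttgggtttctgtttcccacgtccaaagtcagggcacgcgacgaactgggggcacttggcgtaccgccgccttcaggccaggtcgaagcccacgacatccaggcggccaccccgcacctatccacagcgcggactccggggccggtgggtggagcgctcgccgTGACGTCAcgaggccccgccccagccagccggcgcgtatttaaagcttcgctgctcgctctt
The stretches lie at chr1:134079156-134079405 on the minus strand for Btg2, chr17:26508473-26508722 on the minus strand for Dusp1, chr11:101665291-101665540 on the plus strand for Arl4d and chr13:110394794-110395043 on the plus strand for Plk2. The complete element begins 166 bases before the start in Btg2, 143 in Dusp1, 26 in Arl4d and 62 in Plk2. The 4 genes span much of the range of called differences, from 0.62 for Plk2 to 1.89 for Btg2.

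The called genes did not all sit at the same place between the untreated and the bicuculline level. The changes against DMSO and against PK-cleaved peptides are given side by side here. They share the bicuculline or peptide libraries with the comparison above, and the DMSO changes share the DMSO libraries with each other, so they add no independent evidence. In these fits 51 genes were called for bicuculline against DMSO (0.469%), 2 for NMP peptides against DMSO (0.0184%) and 9 for NMP peptides against PK-cleaved peptides (0.0827%), all higher. By the correlations of their deviations (0.51, 0.50 and 0.61), the replicate numbers pair the intact and PK-cleaved peptide libraries. This pairing was read from these same data. With the replicate block and only those groups in the fit, 25 genes were called, 24 higher and 1, Txnip, lower. They included 8 of the 9, and 11 of the 19 genes called between bicuculline and the intact peptides, Arc, Egr2, Egr4 and Dusp1 among them. With the block over all libraries the count was 9. Btg2 changed by 3.19 with bicuculline and 1.30 with NMP peptides, each against DMSO, and by 1.22 with intact against PK-cleaved peptides, on the log2 scale. Arc changed by 4.15 with bicuculline and 1.64 with NMP peptides against DMSO, and by 1.40 with intact against PK-cleaved peptides. For Npas4 the values were 4.33, 2.08 and 2.46 in the same order, and for Fos 3.38, 1.88 and 1.94. Npas4 and Fos were the 2 genes called for NMP peptides against DMSO (limma adjusted p = 0.0455 for each). In that comparison Btg2 (limma adjusted p = 0.052) and Arc (0.440) were not called.

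Cited2, Errfi1 and Dnajb1 showed their change mainly with bicuculline, although Cited2 and Errfi1 were not called between the treatments without the 4 high-Gfap libraries. Cited2 changed by 1.02 with bicuculline and 0.16 with NMP peptides against DMSO, and by 0.18 with intact against PK-cleaved peptides. Errfi1 changed by 0.99 with bicuculline and 0.15 with NMP peptides against DMSO, and by 0.07 against the PK-cleaved preparation. Dnajb1 gave 0.97, 0.22 and 0.19, and Arl4d 1.88, 0.47 and 0.36. For Cited2, Errfi1 and Dnajb1 the 95% intervals of the peptide changes included 0 against DMSO and against PK-cleaved peptides alike. Nppc, which encodes C-type natriuretic peptide, lay just outside the call with a similar pattern (difference 1.04, SE 0.20, limma adjusted p = 0.0597). Unlike Cited2, Errfi1 and Dnajb1, Nppc was not called for bicuculline against DMSO either (difference 0.87, limma adjusted p = 0.244). Its log2 signal was 2.71, 2.93 and 3.52 with bicuculline, against 1.84, 2.03 and 2.16 with NMP peptides and 2.22 and 2.14 with DMSO. The bicuculline libraries lay above all others, and the peptide and DMSO libraries overlapped.

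**Figure D3:**
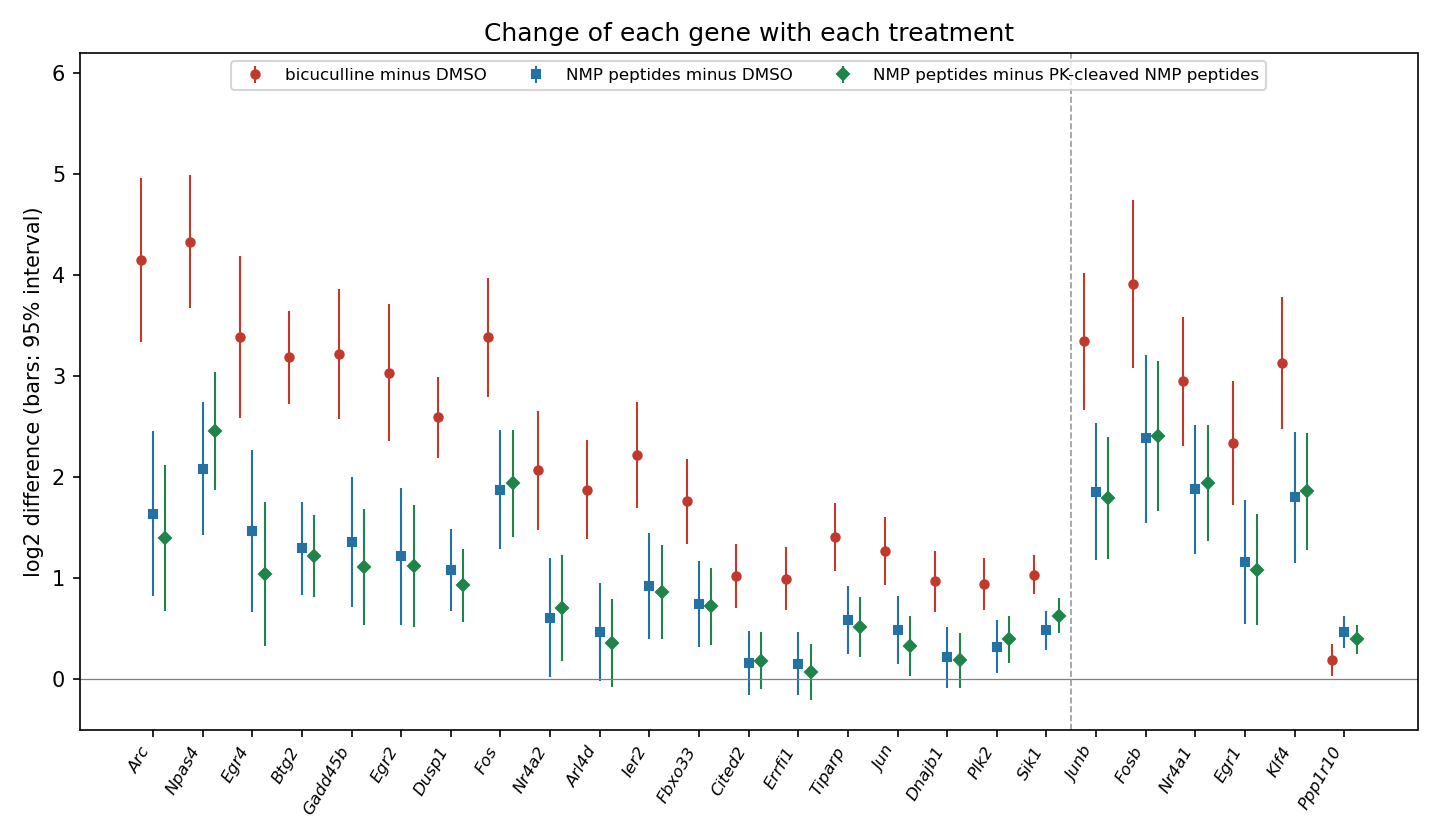
Points are log2 differences of bicuculline minus DMSO (red), NMP peptides minus DMSO (blue) and NMP peptides minus PK-cleaved NMP peptides (green), with 95% intervals from the limma fit. The 19 called genes stand left of the dashed line in order of their difference between the treatments, and 6 genes not called stand right of it. Npas4 and Arc exceed 4 with bicuculline, Cited2 and Errfi1 stay below 0.2 with the peptides, and in Ppp1r10 the peptide changes (0.46 and 0.39) exceed that of bicuculline (0.19).

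Other members of the same families missed the threshold. Fosb, an AP-1 subunit, had log2 signals of 6.27, 5.52 and 6.91 with bicuculline, against 4.86, 5.03 and 4.23 with NMP peptides, a difference of 1.53 with a 95% interval of 0.78 to 2.27 (limma adjusted p = 0.175). Nr4a1, a nuclear receptor, had 6.17, 5.71 and 6.15 with bicuculline, against 5.11, 5.22 and 4.49 with NMP peptides, a difference of 1.07 with a 95% interval of 0.50 to 1.64 (limma adjusted p = 0.322). The groups did not overlap in either gene. Intact peptides raised both over PK-cleaved peptides, Fosb by 2.41 (limma adjusted p = 0.0139) and Nr4a1 by 1.94 (limma adjusted p = 0.0105). Junb, another AP-1 subunit, differed by 1.49 (95% interval 0.88 to 2.09, limma adjusted p = 0.0537), the pluripotency factor gene Klf4 by 1.33 (0.75 to 1.91, limma adjusted p = 0.0866) and Egr1 by 1.18 (0.63 to 1.73, limma adjusted p = 0.138). The adjusted p-values above the threshold do not show that the treatments acted alike on these genes, and none of these intervals reached 0. Without the 4 high-Gfap libraries, a fit chosen after seeing the data, the limma adjusted p was 0.00537 for Fosb (difference 1.64), 0.00102 for Junb (1.58), 0.0414 for Egr1 (1.04) and 0.0365 for Nr4a1 (1.00), while Klf4 was not called (0.132). Egr3 differed by 0.99, and by 1.06 without those libraries (limma adjusted p = 0.00309). Atf3, another partner in AP-1, differed by 1.18 (95% interval 0.16 to 2.20). Nr4a3 differed by 0.75 and Fosl2 by 0.70, and without bicuculline replicate 3 these were 0.41 and 0.46.

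Around the threshold the values ran on without a gap. The last genes inside were Plk2, Egr4 and Fbxo33, each with an adjusted p of 0.0305, and Jun at 0.0373 (limma). The next 5 genes were Rgs2, Tob2, Slc2a1, Txnip and Junb, all with a limma adjusted p of 0.0537. Rgs2, a brake on G-protein signalling, differed by 0.96 (SE 0.18), Tob2, a relative of Btg2, by 0.60 (SE 0.11) and Slc2a1, the glucose transporter GLUT1, by 0.65 (SE 0.12). With array weights, 38 genes were called, and Rgs2 (limma adjusted p = 0.00841) and Junb (0.00846) were among them. Without the 4 high-Gfap libraries Rgs2 was called (limma adjusted p = 0.018), and Tob2 (0.0941) and Slc2a1 (0.178) were not.

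The genes that bicuculline raised over DMSO and that differed least from the peptides included Pnrc1, Klf6 and Tob1. Of the 51 genes called against DMSO, the smallest differences were 0.26 for the nuclear receptor coactivator gene Pnrc1 (95% interval 0.08 to 0.43) and 0.31 for the zinc-finger gene Klf6 (0.16 to 0.46). Tob1, an antiproliferative factor, differed by 0.41 (0.15 to 0.66), the ETS repressor gene Erf by 0.45 (0.18 to 0.72) and Adrb1, the β1-adrenergic receptor gene, by 0.46 (0.14 to 0.79), or by 0.28 without NMP peptides replicate 3. All 5 lay above 0 with intervals that did not reach it, and 0 of the 5 were called at the adjusted threshold.

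Txnip and Klf10 separated the treatments from the other side. Txnip encodes thioredoxin-interacting protein, an arrestin-like protein that restrains glucose uptake. Its log2 signal was 3.75, 4.62 and 4.04 with bicuculline, against 2.34, 2.43 and 2.89 with NMP peptides and 4.73 and 3.64 with DMSO. The bicuculline and DMSO libraries overlapped and the 3 peptide libraries lay below all of them. The difference between the treatments was 1.58 (SE 0.30, 95% interval 0.94 to 2.23). Against DMSO, Txnip differed by −0.05 with bicuculline (95% interval −0.77 to 0.67) and −1.64 with NMP peptides (−2.36 to −0.91, limma adjusted p = 0.208), and intact peptides differed from PK-cleaved peptides by −1.05 (−1.69 to −0.41, limma adjusted p = 1). With the replicate block and only the intact and PK-cleaved libraries in the fit, that difference had an SE of 0.10 and was called (limma adjusted p = 0.0100). Within each of the bicuculline, peptide, PK-cleaved and DMSO groups the library with the highest Gfap also had the highest Txnip signal. Without those 4 libraries the difference between bicuculline and NMP peptides was 1.51 (SE 0.14, limma adjusted p = 0.00097).

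Klf10, a TGF-β-inducible transcriptional repressor, had log2 signals of 2.17, 2.42 and 1.90 with bicuculline, against 1.73, 1.59 and 1.59 with NMP peptides and 2.27 and 2.26 with DMSO. Its peptide libraries were again the lowest. The difference between the treatments was 0.53 (SE 0.11, limma adjusted p = 0.118), with −0.10 for bicuculline and −0.63 for NMP peptides against DMSO. With all libraries in the fit and no block, weights or covariate, neither gene passed the threshold in any of these comparisons. With array weights Klf10 was called between the treatments (difference 0.56, limma adjusted p = 0.0146). It differed by 0.38 without the 4 high-Gfap libraries.

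No gene was called lower with bicuculline. The smallest p-value on that side belonged to Ppp1r10, which encodes PNUTS, a nuclear regulatory subunit of protein phosphatase 1 (chr17:35916512-35932283). Its log2 signal was 3.42, 3.28 and 3.33 with bicuculline, against 3.59, 3.64 and 3.62 with NMP peptides and 3.22 and 3.09 with DMSO. The 3 peptide libraries lay above all others and were close together (SD 0.03). The difference was −0.27 (SE 0.07, 95% interval −0.42 to −0.13, unadjusted p = 0.00100, limma adjusted p = 0.266). Intact peptides raised Ppp1r10 over PK-cleaved peptides by 0.39 (limma adjusted p = 0.0446), a call lost with the replicate block over all libraries (limma adjusted p = 0.148) or over these groups alone (0.0638). The changes against DMSO were 0.19 with bicuculline and 0.46 with NMP peptides, neither called. It was the 1 member of the effector list with an unadjusted p under 0.05 below 0.

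Dph2 and Fgf18, the next by p-value on that side, were not called either. Dph2, an enzyme of diphthamide synthesis on elongation factor 2, had log2 signals of 1.37, 1.71 and 1.41 with bicuculline, against 2.06, 1.78 and 1.86 with NMP peptides (difference −0.40, limma adjusted p = 0.393). Fgf18, a fibroblast growth factor, had 1.47, 1.20 and 0.92 with bicuculline, against 1.84, 1.54 and 1.73 with NMP peptides (difference −0.51, limma adjusted p = 0.609). The bicuculline libraries lay below the peptide libraries in both. Every bicuculline library lay below every peptide library in 1.41% of all tested genes.

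Secreted activity-linked factors were not called. Bdnf, a neurotrophin, had log2 signals of 2.41, 1.93 and 3.45 with bicuculline, against 1.94, 2.24 and 1.28 with NMP peptides. The groups overlapped, and the difference of 0.78 had a 95% interval of 0.04 to 1.52 (limma adjusted p = 1). It was 0.35 without bicuculline replicate 3 and 0.51 without NMP peptides replicate 3. The neuropeptide precursor gene Vgf differed by 0.71, the secretogranin gene Scg2 by 0.57 and the neuronal pentraxin gene Nptx2 by 0.55. Without bicuculline replicate 3 the difference was 0.41 for Vgf and 0.27 for Scg2, and without NMP peptides replicate 3 it was 0.46 for Vgf. Of 18 tested secreted factors 0 were called, where the share over all tested genes was 0.175%. Among the 18, 5 had an unadjusted p under 0.05, all above 0, and the median difference was 0.11. Among the feedback inhibitors, Dusp5 (1.05, 95% interval 0.56 to 1.53, limma adjusted p = 0.129) and Dusp6 (0.70, 95% interval 0.22 to 1.17, limma adjusted p = 0.976) also lay above 0 without a call, and Dusp6 differed by 0.42 without NMP peptides replicate 3.

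Genes for receptors, calcium channels, calcium signalling and the proteasome showed little difference in transcript level after 1 h. The 12 tested GABA-A receptor subunit genes, the target of bicuculline, differed by −0.08 to 0.09, and the 8 tested NMDA and AMPA receptor subunit genes by −0.19 to 0.16. The 15 calcium channel subunit genes ranged from −0.02 to 0.15. The 38 constitutive CREB, SRF, MEF2 and calcium signalling genes ranged from −0.10 to 0.10 with a median of 0.01. The 41 tested proteasome subunit and Gpm6 genes, which include the membrane glycoproteins that anchor the NMP, ranged from −0.11 to 0.06 with a median of −0.02. In these 5 lists 0 genes were called and 0 had an unadjusted p under 0.05. Over all tested genes 0.175% were called, and 1.82% (higher) and 0.303% (lower) had an unadjusted p under 0.05. Counts of 0 in lists of this size are near those shares and do not set these genes apart. The 95% intervals were wider than these ranges, reaching −0.83 in the NMDA and AMPA list and 0.51 in the CREB, SRF and MEF2 list, so differences within those bounds are not shown to be absent.

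Stress and cell type lists held no further call. Across 24 tested genes, the list for the unfolded protein response and integrated stress had a median difference of 0.02, led by Cebpb at 0.55 (unadjusted p = 0.0166). Excitatory neuron markers had a median of 0.04 over 12 genes, inhibitory neuron markers 0.06 over 14, pan-neuronal markers 0.02 over 12 and astrocyte markers −0.01 over 15. The NF-kB and interferon lists had 4 tested genes each, with medians of 0.03 and −0.02, and progenitor and proliferation markers had a median of −0.01 over 12. Of the endothelial and mural markers 1 of 12 was tested, Acta2, a smooth muscle actin gene, which differed by −0.88 (SE 0.52, limma adjusted p = 1). Of the fibroblast markers 2 of 9 were tested, with a median of 0.16. Housekeeping genes had a median of 0.08 over 14. Oligodendrocyte lineage markers had a median of 0.16 over 9 genes, of which 0 had an unadjusted p under 0.05. Their summed antilogged signal was 134 to 153 in the bicuculline libraries and 136 to 150 in the peptide libraries. Nefl, a neurofilament subunit, differed by 0.50, Neurod6 by 0.25, Neurod2 by 0.24 and Sox9 by 0.27, each with an unadjusted p under 0.05 and a limma adjusted p of 1. Nefl differed by 0.24 without bicuculline replicate 3 and Neurod6 by 0.11 without NMP peptides replicate 1. Their part in the activity-gene differences was not tested.

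**Figure D4:**
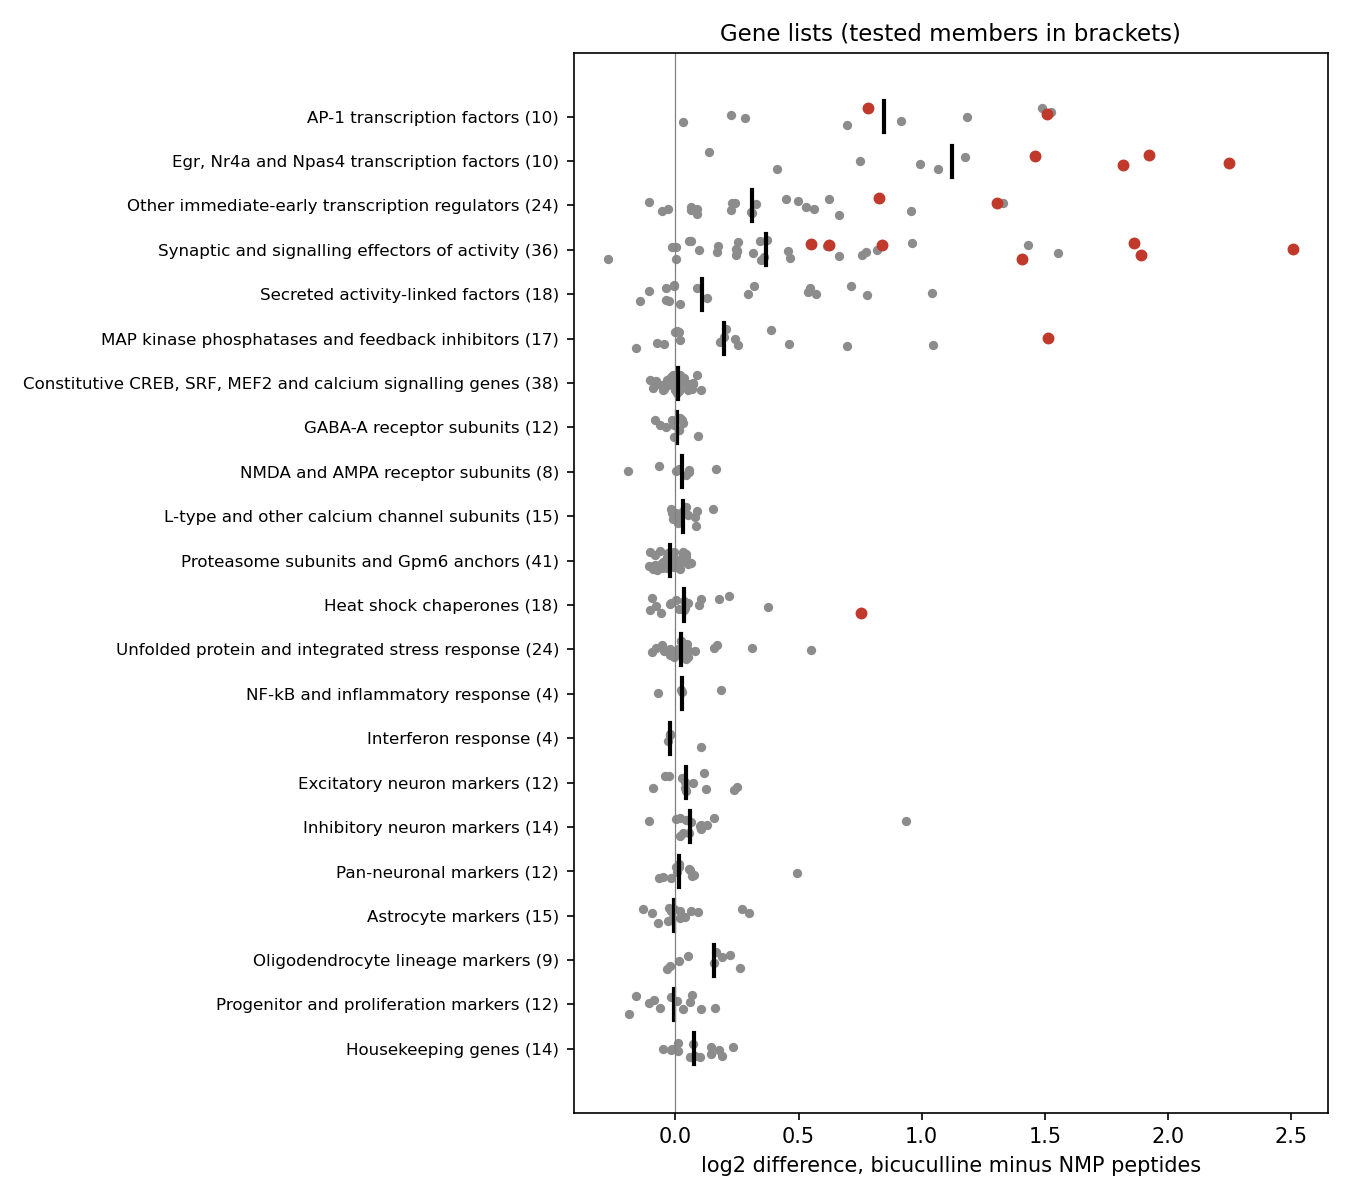
Each point is the log2 difference between bicuculline and NMP peptides for 1 tested gene, grouped by list, with the number of tested members in brackets, a black bar at the list median and called genes in red. The Egr, Nr4a and Npas4 list has the highest median, 1.12, and the receptor, channel and proteasome lists cluster at 0. Lists with fewer than 4 tested members are left out.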

How the data were processed

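RNA from 14 libraries in 5 groups was measured. The deposited table holds log2 signals by the name the authors gave it and by its values: multiplied by exon length in kilobases, the antilogs sum to 834000 to 903000 a library with base 2 and 5930000 to 6530000 with base e. Per the submitters' processing notes the genome was GRCm38.p6; for aligner and counter the status is "not given in the sources used here". Every library has the median 2.19 and the maximum 12.0, the mark of quantile normalisation. Of 45802 features, 18128 had a value; the lowest 40% by mean were dropped, with absent values ranked at the lowest value of the table, leaving 10877. In 21 of these a date had replaced the symbol.

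All libraries entered 1 linear model in limma 3.58.1 (R 4.3.3) with group means, empirical Bayes and a variance trend. Each of the 4 comparisons had its own Benjamini-Hochberg adjustment of two-sided p-values, with calls under 0.05. Replicates are called biological in the design text, which does not say what was replicated; the spread that p-values measure may be technical. Replicate numbers did not pair the bicuculline and peptide libraries (deviations correlated at −0.06, −0.22 and −0.45), but did pair NMP peptides with PK-cleaved peptides (0.51, 0.50 and 0.61). Across numbers, bicuculline 1 correlated with peptides 2 at 0.39, 2 with 3 at 0.68 and 3 with 1 at 0.47. The remaining cross-number pairs lay between −0.41 and −0.09. The labels give no such pairing, no fit was blocked on it, and its effect on the calls was not tested. The fit was also run on simulated data with independent noise in each library. Those data lacked the correlations given above, so that run does not test the p-values here.

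Members and lists were chosen with earlier results of these data known. Named genes were 7 index genes, all called genes, the lowest genes, the largest differences per list, genes called against PK-cleaved peptides, the 5 smallest differences among genes raised over DMSO, and Gfap. Rgs2, Tob2, Slc2a1, Txnip, Klf10, Egr3, Nr4a3, Fosl2 and Gm2446 were named after their values were seen. Alternatives were 2 filters, median centring, replicate blocks, only the compared groups, no trend, array weights, each library left out and, added later, 2 Gfap fits. Alternatives for linear values did not apply.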

Additional observations from a re-analysis of the deposited data

How the results depend on the processing

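The count of genes higher with bicuculline than with NMP peptides (19) was 5 when these groups were fitted alone, 10 with no variance trend, 38 with array weights and 39 with Gfap as a covariate. Leaving out 1 library gave 4 to 34. With the replicate block the count was 15 over all libraries and 0 when these groups were fitted alone, although the numbers do not pair these libraries. No filter, the stricter filter (18 genes) and median centring left 19, 15 and 19 of the 19 genes. The stricter filter removed Npas4, Egr2, Nr4a2 and Fbxo33 before the test. For bicuculline against DMSO (51) the count was 27 when these groups were fitted alone, 79 with the replicate block added to that, and 30 (without DMSO replicate 3) to 55 with 1 library left out. For NMP peptides against DMSO (2) array weights, either filter setting, either replicate block, a fit of these groups alone and a fit with no trend each gave 0. Median centring gave 6, dropping the 4 high-Gfap libraries 9, Gfap as a covariate 15, and leaving out 1 library 0 to 10. For intact against PK-cleaved peptides (9) the replicate block over these groups alone gave 25 (24 higher), Gfap as a covariate 19 and leaving out 1 library 1 to 11. Fits that keep 1 DMSO library assume that it varies like the others. The difference in Gfap turned to −0.30 with array weights and ran from −0.069 (without bicuculline replicate 2, and −0.067 without NMP peptides replicate 1) to 0.80 with 1 library left out. Over the 53 named genes, 683 gene-by-setting results kept their direction and call, 43 gained a call, 106 lost one and 3, all of Gfap, changed sign. Causes were not tested. With 3 libraries a group, unknown depth and doses that cannot be matched, a missing call does not show equal responses.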
